A study of Bos taurus with 2 samples.

Results

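The 9 genes examined here, SYCP1, SYCP2, SYCP3, HORMAD1, DMC1, SPO11, MLH3, MSH4 and MSH5, act when homologous chromosomes pair and recombine in meiosis. They were chosen by gene name, and all non-control probes carrying one of the names were taken from both arrays. By this rule 6 of the 9 genes were present, with 8 probes, among 32429 gene names on the array. SYCP1 and MLH3 were not among the names, but the annotation describes probes for them that carry only an accession as their name. Reading these descriptions added 7 probes, 2 for SYCP1, 4 for MLH3 and 1 for MSH5, so that 8 genes and 15 probes could be read. No probe of SYCP2 was found by either route, and SYCP2 was not analysed here.

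The study asked which testis transcripts differ between crossbred bulls, whose fertility it set out to examine, and Zebu bulls. The crossbred bulls were Holstein Friesian crosses with 50 to 75% exotic inheritance, and the Zebu bulls were of the Tharparkar breed. All bulls were 24 months old, and 1 testis of each was taken by unilateral castration. Equal amounts of RNA from 3 bulls of a group were combined, and each of the 2 pools, carrying the dye Cy3, was read on a single array of 60-base probes. With 1 array per group there was no replicate check and no test between the groups, and animals within a pool could not be told apart.

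In meiotic prophase, SPO11 cuts both strands of the DNA, and the ends are processed to single strands on which DMC1 searches the homologous chromosome for a match. The chromosomes are meanwhile organized along protein axes that hold SYCP2, SYCP3 and HORMAD1, and the axes of homologs are zipped together by SYCP1, the transverse filament of the synaptonemal complex. Some of the joined molecules are stabilized by the MSH4 and MSH5 pair and resolved as crossovers by an endonuclease that contains MLH3. These events take place in spermatocytes, which in an adult testis lie between the dividing spermatogonia and the postmeiotic spermatids.

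The probes on which most of the account rests are shown as the array gives them, written 5′ to 3′ in lower case. DMC1 and SPO11 showed the largest differences among the members, and each was read from 1 probe only. The MSH5 probes are shown because they overlap, with the bases that both hold in capitals.
DMC1: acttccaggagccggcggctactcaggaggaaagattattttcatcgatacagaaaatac
SPO11: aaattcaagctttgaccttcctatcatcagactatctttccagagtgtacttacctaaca
MSH5 first probe: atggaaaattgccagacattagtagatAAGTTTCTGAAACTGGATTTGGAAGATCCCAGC
MSH5 second probe: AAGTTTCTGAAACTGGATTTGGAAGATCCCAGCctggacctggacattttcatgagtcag
The MSH5 probes shared 33 bases, at the end of the first and the start of the second. They are therefore not independent readings of the gene. No other member probe shared a run of 20 bases or more with another probe on the array.

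Levels are given as normalized log2 signal, in log2 units above or below the 75th percentile of all non-control probes on the same array. As processed signal, that percentile was 1176 for the crossbred pool and 1233 for the Zebu pool. Every difference is crossbred minus Zebu on this scale, and a gene was called higher or lower where this difference reached 1.5 in size, which is 2.83-fold. Of the 15 member probes, 13 stood well above background in both pools and 2 in neither. No member spot lay in the dark or the bright patch of the crossbred array, and no spot was saturated. Since 12 of the 15 probes had 1 spot, the error of a value was taken from other probes of like signal that had several spots. The SD of a difference between such spots was 0.24 to 0.40 around the 13 detected probes, and it covers spotting and scanning only, not labelling, pooling or animals.

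**Figure D1:**
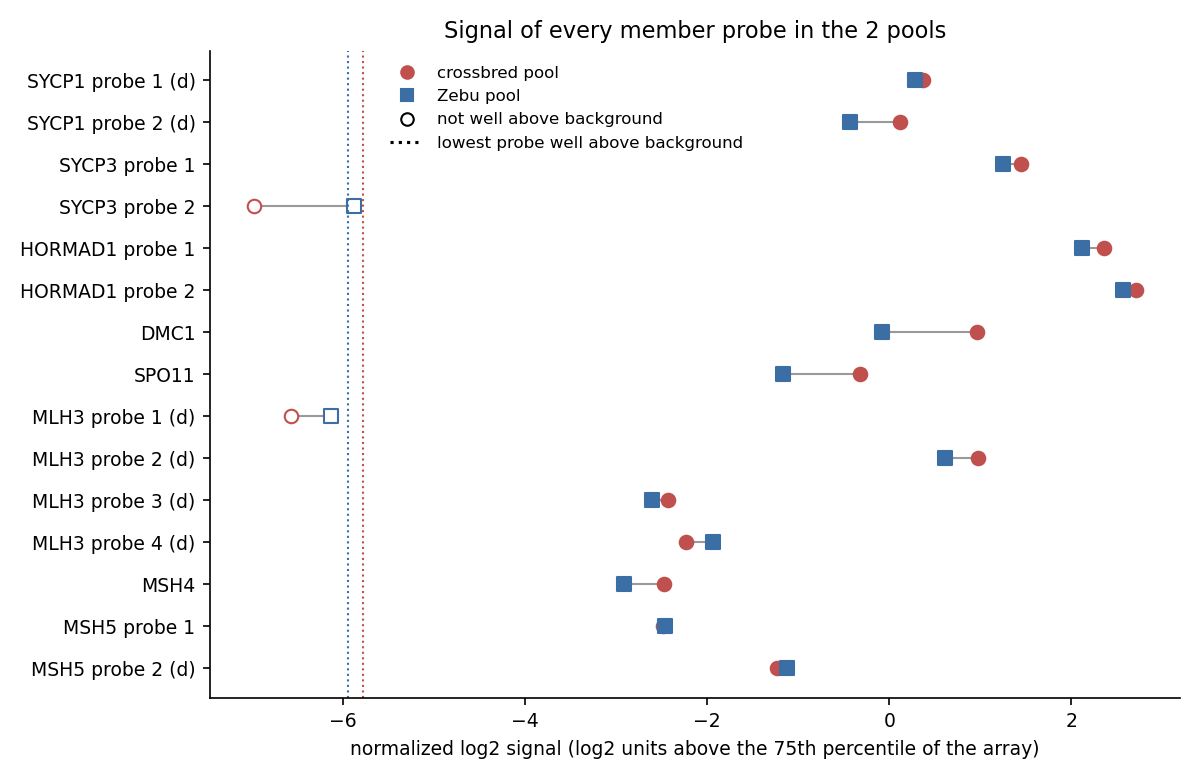
Normalized log2 signal (log2 units above the 75th percentile of the array) of each of the 15 member probes in the crossbred pool (circles) and the Zebu pool (squares), 1 array each. Probes found by their description are marked (d), open symbols were not well above background, and the dotted lines mark the lowest probe well above background on each array. The widest gaps among the 13 detected probes are those of DMC1 and SPO11, and signals of different probes are not comparable with each other.

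Most of these genes had a slightly higher signal in the crossbred pool, and none reached the threshold. Of the 6 genes read by name, 0 were higher and 0 were lower by 1.5, where 7.12% of all detected gene names were higher and 2.92% were lower. The difference was above 0 in 5 of the 6 genes and below 0 in 1. Its median over the 6 genes was 0.32, against -0.05 over the 24751 gene names detected. With the genes read by description included, 7 of 8 genes were above 0 and the median was 0.28. Counted by probe, 10 of the 13 detected probes were above 0 and 3 were below.

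SPO11, whose protein makes the DNA breaks with which recombination begins, had a processed signal of 939 in the crossbred pool and 551 in the Zebu pool. Its normalized log2 signal was -0.32 and -1.16, a difference of 0.84 or 1.79-fold. The SD between spots of like signal was 0.28, so the difference was about 2.96 of these SDs. Among the gene names well above background on both arrays, 14.7% had a higher difference. The 18 nearest spots on the slide had a median difference of -0.45, so the SPO11 spot was high among neighbours that were low in the crossbred pool. Its only probe lies on chromosome 13 from 59580191 to 59580250, on the minus strand of HGSC Btau_3.1.

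DMC1, the recombinase that carries out strand exchange between homologs and works only in meiosis, showed the largest difference of the members. Its processed signal was 2299 in the crossbred pool and 1171 in the Zebu pool. On the normalized log2 scale these were 0.97 and -0.07, a difference of 1.04 or 2.06-fold, which was 3.16 times the SD of 0.33 between spots of like signal. DMC1 thus stood further outside the spot error than any other detected member probe, yet 11.4% of the gene names detected on both arrays had a higher difference. The nearest spots had a median difference of 0.10. The probe lies on chromosome 5 from 117293146 to 117293205, on the minus strand.

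DMC1 and SPO11 were also the only members past a linear fold of 1.5, which 21.4% of all detected gene names exceeded upward and 22.2% downward. At a log2 difference of 1, DMC1 alone was counted as higher, where 12.8% of names were higher and 8.87% were lower.

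**Figure D2:**
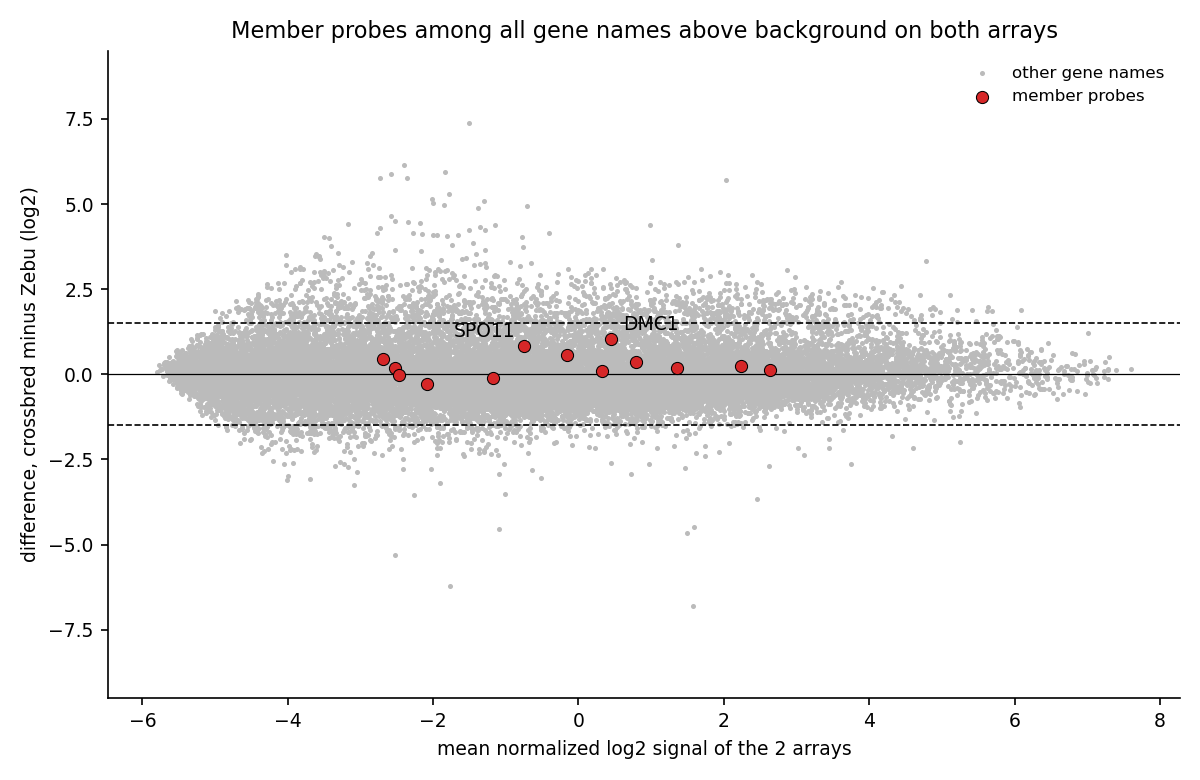
Difference between the pools (crossbred minus Zebu, log2) against the mean normalized log2 signal of the 2 arrays, for the 22842 gene names well above background on both arrays (grey) and the 13 detected member probes (red). Dashed lines mark differences of 1.5 in size. All member probes lie between the dashed lines, and DMC1 at 1.04 and SPO11 at 0.84 lie highest.

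Among the members, transcripts for proteins of the chromosome axis and the synaptonemal complex differed little, except in the dimmer SYCP1 probe. HORMAD1, which marks unpaired axes and promotes break formation and homolog pairing, was read from 2 probes that lie close together on chromosome 3. The brighter, from 21572665 to 21572724, gave 2.71 in the crossbred and 2.57 in the Zebu pool on the normalized log2 scale, a difference of 0.14. The other, whose ends map to 21571179 and 21572370 and which therefore spans more of the genome than its own 60 bases, gave 2.36 and 2.12, a difference of 0.24. Both probes had the same sign, and both differences were smaller than the SD between spots of like signal, 0.24 and 0.32.

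SYCP3, a structural protein of the axis that is widely used as a marker of spermatocytes, had a normalized log2 signal of 1.45 in the crossbred and 1.25 in the Zebu pool. The difference of 0.20 was smaller than the SD of 0.39 between spots of like signal. The probe lies on chromosome 5 from 70465514 to 70465573. A further SYCP3 probe, which has no genome position in the annotation, was not well above background on either array, and no difference is given for it.

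SYCP1 was read only through its description, and its 2 probes did not give the same picture. The brighter, on chromosome 3 from 30802458 to 30802517, gave 0.37 in the crossbred and 0.28 in the Zebu pool on the normalized log2 scale. That difference of 0.09 was smaller than the spot SD of 0.33. The other probe, with no genome position, gave 0.12 and -0.43, a difference of 0.55 or 1.66 spot SDs. It had 2 spots, which lay 0.09 apart for the crossbred pool and 0.10 apart for the Zebu pool, closer together than the pools were.

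The crossover genes showed small differences of both signs. MSH4, which forms a sliding clamp with MSH5 on recombination intermediates, had a normalized log2 signal of -2.47 in the crossbred and -2.91 in the Zebu pool. Its difference of 0.44 was 1.3 times the spot SD of 0.34, and the nearest spots had a median of -0.50. The probe lies on chromosome 3 from 73761315 to 73761374. MSH5, read by name from chromosome 23 between 27361827 and 27362108, gave -2.49 and -2.46, a difference of -0.03. The overlapping second probe gave -1.23 and -1.13, a difference of -0.10. Both MSH5 differences were well within the spot SD of 0.31 and 0.28.

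MLH3, an endonuclease subunit of crossover formation, was read through its description from 4 probes, 3 of them on chromosome 10. The brightest, from 88744909 to 88744968, gave 0.98 in the crossbred and 0.61 in the Zebu pool on the normalized log2 scale, a difference of 0.37. A probe from 88767387 to 88767446 differed by 0.17. A probe with 2 spots and no genome position differed by -0.29, with spots 0.34 apart for the crossbred pool and 0.14 apart for the Zebu pool. The fourth probe was not well above background on either array. The detected MLH3 probes thus disagreed in sign, and the differences of the first and second were smaller than the spot SD of 0.40 and 0.31.

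**Figure D3:**
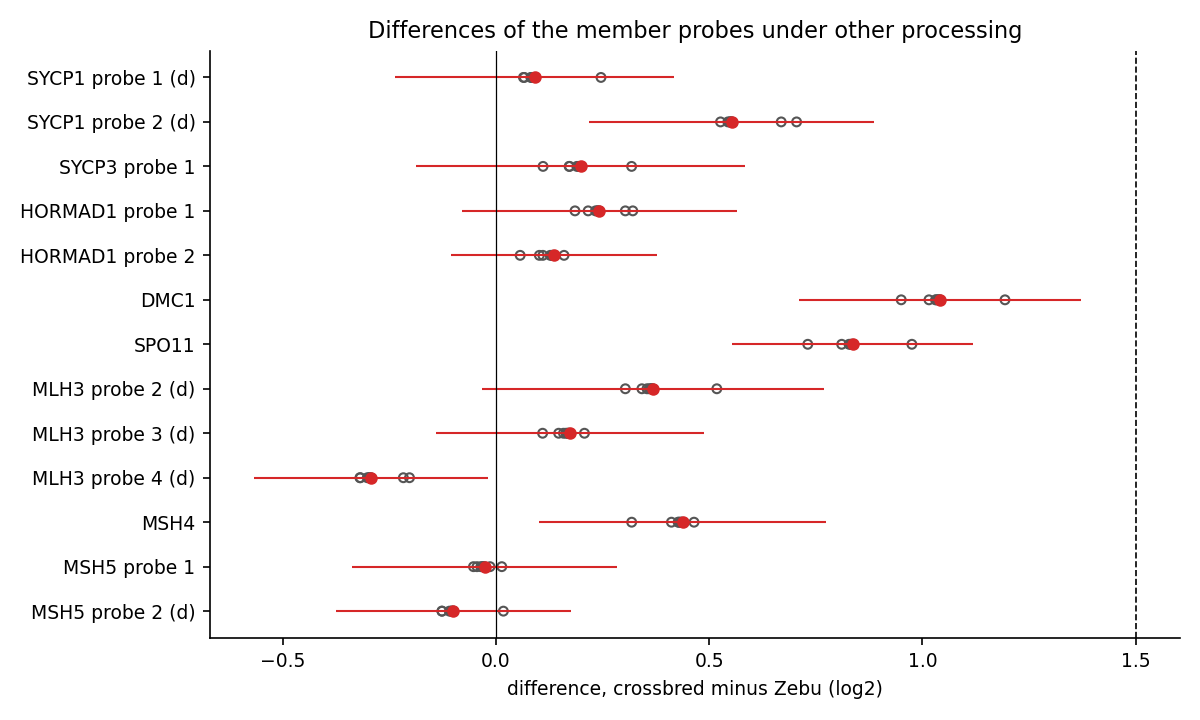
Difference between the pools (crossbred minus Zebu, log2) of the 13 detected member probes as reported (filled, with a bar of 1 SD of a difference between replicate spots of like signal on each side) and under other backgrounds, scalings, filters and value sources (open). Probes found by their description are marked (d). DMC1 stays between 0.95 and 1.19 and SPO11 between 0.73 and 0.98, and the dashed line marks the threshold of 1.5.

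The members were next set beside 110 further genes of meiotic chromosome biology, of which 98 were on the array and 97 were detected. Of these, 0 were higher and 1 was lower by 1.5, where 7.12% of all detected gene names were higher and 2.92% were lower. The difference was above 0 in 48 and below 0 in 49, with a median of -0.02. The genes of the synaptonemal complex and the chromosome axis lay mostly on one side. All 12 on the array were detected, 11 were above 0 and 1 was below, and the median was 0.47. Over all names, 11587 of the 24751 detected were above 0. Among the 11 was SPDYA, at 0.60 in its brightest probe but at -3.74 in its other probe. HORMAD2, the relative of HORMAD1 on unpaired axes, had the highest difference, 0.94, and SYCE1, of the central element, differed by 0.65. The lowest were CCNE1, a cyclin, at 0.08 and TEX12, also of the central element, at -0.26.

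Genes of break formation were spread around 0, with 7 above, 6 below and a median of 0.02. TOPOVIBL, the partner of SPO11 in the break-forming complex, differed by 1.04, with a normalized log2 signal of -0.65 in the crossbred and -1.68 in the Zebu pool. ATM, the kinase that signals breaks, differed by 0.66. At the other end stood RBBP8, which starts the trimming of broken ends, at -0.85, and PRDM7, a relative of the hotspot-setting methyltransferase PRDM9, at -1.37. PRDM9 itself was not well above background on either array. The array names the PRDM7 probe only by a locus number, and since these relatives are alike in sequence the PRDM7 value is uncertain.

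Among 27 genes of strand invasion and repair 11 were above 0 and 16 below, and the median was -0.24. SWI5, a recombination cofactor, differed by 0.97 and the repair factor BRCA1 by 0.94. RAD51C, another repair factor, differed by -1.18 in its brighter probe and by -0.18 in the other. PALB2, a scaffold of break repair, differed by -1.63 and was the only further meiotic gene past the threshold. The brightest PALB2 probe lay in the dark patch of the crossbred array, and its other probes had a median difference of -0.71. Without the spots in the patches no further meiotic gene was lower by 1.5.

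Among 16 genes of crossover formation and mismatch repair 6 were above 0 and 10 below, with a median of -0.15. CCNB1IP1, a ligase of crossover sites, differed by 0.95 and PRR19, another crossover factor, by 0.69. MSH3, of mismatch repair, differed by -0.71 and EME1, part of a structure-selective nuclease, by -0.87, with -0.12 in its other probe. The 14 cohesin genes had 5 above and 9 below 0 and a median of -0.14, from 0.90 for PDS5B, a cohesin regulator, and 0.21 for the meiotic subunit STAG3 to -0.76 for STAG2 and -0.86 for RAD21. The value of PDS5B rests on its brightest probe, and the median of the others was -0.43.

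Of the 5 genes that attach telomeres to the nuclear envelope and move chromosomes, 3 were above 0, with a median of 0.23. TERB1 differed by 0.36 and KASH5 by 0.33, both meiotic, while the telomere protein TERF1 differed by -0.48 and SUN2, of the envelope, by -0.96. The value of SUN2 also rests on its brightest probe, and the median of the others was -0.01. Of the 11 genes of meiotic entry and its transcription 6 were above 0, with a median of 0.19. REC8 is counted both here and among the cohesin genes. STRA8, which starts meiosis, differed by 0.59 and MYBL1, a transcription factor of spermatocytes, by 0.59. SOHLH1 and DMRT1, transcription factors of spermatogonia, differed by -0.60 and -0.89.

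Within these lists, meiotic genes were set beside relatives that serve other dividing cells, in 9 pairs chosen after the values were seen. In all 9 pairs the meiotic gene had the higher difference, by a median of 0.90. The pairs share genes, 6 meiotic genes and 6 relatives in all, and are not 9 separate readings. The widest gap, 1.15, was that of MSH4 at 0.44 against the mismatch repair protein MSH3 at -0.71, and MSH4 also exceeded MSH6 at -0.24. The gap was smallest, 0.22, for MSH5 at -0.03 against MSH6. That gap is smaller than the spot SD of 0.31 around this MSH5 probe, which was read by name. The brighter MSH5 probe, read by description, differed by -0.10. Of the cohesins, REC8 differed by 0.20 and RAD21L1 by 0.11 against RAD21 at -0.86. STAG3 at 0.21 stood above STAG1 at -0.69 and STAG2 at -0.76, and SMC1B at -0.13 stood above SMC1A at -0.62. STAG1 differed by 0.15 in its other probe and the STAG3 probes ran from -0.12 to 0.71, so that pair depends on the probe. SMC1A had a low normalized log2 signal, -4.03 in the crossbred and -3.42 in the Zebu pool. The median gap was 0.64 when differences were centred on gene names of like signal.

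**Figure D4:**
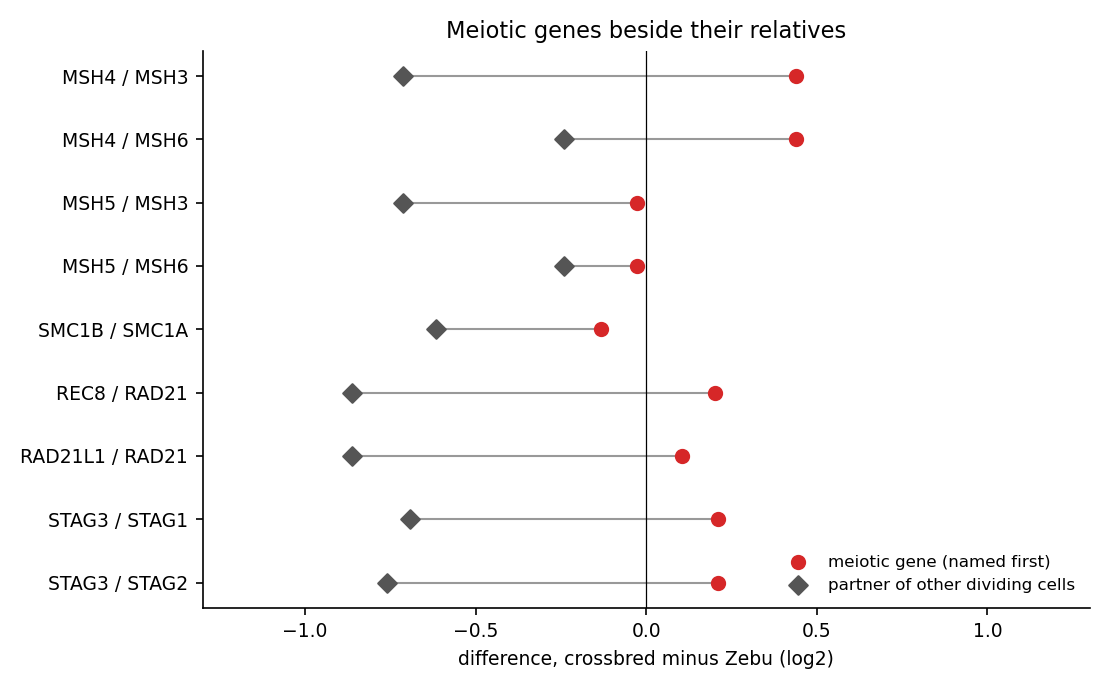
Difference between the pools (crossbred minus Zebu, log2) for 9 pairs of a meiotic gene (circle, named first) and a relative used by other dividing cells (diamond), with a line joining each pair. The circle lies to the right of the diamond in all 9 pairs, by 0.22 for MSH5 and MSH6 and by 1.15 for MSH4 and MSH3. The pairs were chosen after the values were seen and share genes, so this count is not a test.

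The markers of testicular cells did not move together. The members act in spermatocytes, and all 8 markers of these cells stood well above background in both pools. Of these, 7 were above 0 and 1 was below, with a median difference of 0.56 and a summed normalized signal in the crossbred pool of 147% of that in the Zebu pool. For the 6 members read by name the corresponding sum was 123%, where it was 108% for the further meiotic genes and 111% for all detected gene names. Such a sum is carried by the brightest probes of a list. OVOL2, a transcription factor of spermatocytes, was the marker past the threshold, at 1.79.

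The spermatid markers were all above 0, with a median of 1.69 and a summed signal of 191%. Past the threshold were PRM2, a protamine, at 1.88, TNP2, a transition protein, at 1.74, ACRV1 of the acrosome at 1.64, TSSK1B, a kinase, at 1.60, CABS1 at 2.42 and SPEM1 at 2.92. Of these, TNP2, ACRV1, TSSK1B, CABS1 and SPEM1 had been reported by the study as higher in crossbred testis on these same arrays. Much of the spermatid median is therefore not a separate reading. In the study's qPCR TNP2 followed the trend of the array, while SPEM1 showed the opposite trend. Spermatogonia markers had 2 above and 5 below 0, a median of -0.71 and a summed signal of 71.5%. STRA8, which was above 0, and DMRT1, which was below, are also in the list of meiotic entry.

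Somatic markers were mostly lower. Of the 7 Sertoli markers detected 1 was above 0, SOX9 at 0.47, and 6 were below. Their median was -0.82 and the summed signal was 73.9%. All 5 peritubular and smooth muscle markers were below 0, with a median of -0.77 and a summed signal of 56.8%. Leydig markers had 2 above and 6 below 0, a median of -0.51 and a summed signal of 68.1%. CYP17A1 at -1.68 and HSD3B1 at -1.77, enzymes of steroid synthesis, were past the threshold, while HSD17B3 differed by 0.93. The study had reported CYP17A1 and HSD3B1 as lower on these same arrays. CYP19A1 was higher by at least 6.26 in its brightest probe, which was not well above background in the Zebu pool. Its other detected probe differed by 0.03. The 4 endothelial markers had a median of 0.11 and the 4 macrophage markers of 0.10, with CD163 not well above background in the crossbred pool.

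The median of the members thus had the sign of the spermatocyte, spermatid, endothelial and macrophage medians and the opposite sign to those of spermatogonia, Sertoli, Leydig and peritubular cells. The endothelial and macrophage medians, of 4 genes each, lay near 0, and the endothelial median was -0.01 with the mean over all probes of a gene. The part of cell composition in the member differences was not tested. In these pooled bulk samples, more cells of a type and more RNA per cell cannot be told apart.

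**Figure D5:**
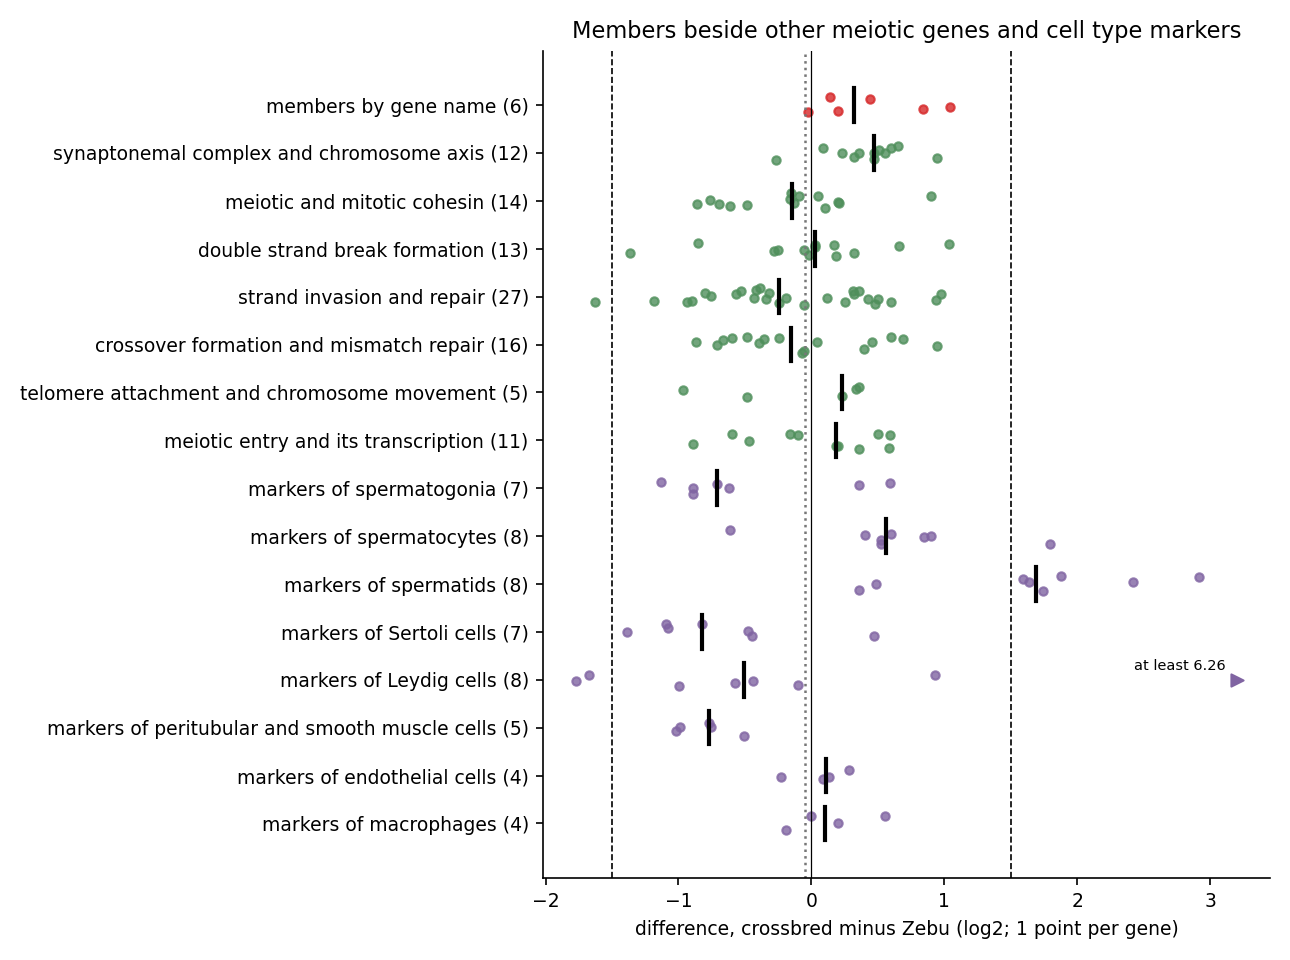
Difference between the pools (crossbred minus Zebu, log2) of the members read by name (red), further meiotic genes (green) and cell type markers (purple), 1 point per detected gene, with the number of detected genes in brackets. Thick bars are medians, dashed lines mark 1.5 in size, and the dotted line is the median of -0.05 over all detected gene names. The arrow is a lower bound of 6.26 for CYP19A1, whose other detected probe differed by 0.03. The members' median of 0.32 lies between that of telomere attachment at 0.23 and that of the synaptonemal complex and axis at 0.47.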

How the data were processed

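Testis RNA of 3 crossbred and 3 Zebu bulls was combined within each group, and each pool was read on 1 array. The authors deposited, per the file headers, the spot intensity processed by Agilent Feature Extraction 11.5.1.1 (background-subtracted, not scaled between arrays), with raw mean and background intensity and flags of spots well above background, saturated or outlying. They also deposited log2 values shifted by the 75th percentile. The precision is limited by the number of arrays.

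From the processed intensity, log2 values were averaged by probe and set relative to the array's 75th percentile, taken across non-control probes. Control spots and 13 outlier spots were left out, which left 51279 of 51282 probes. A gene was read from its brightest probe and counted as detected where the scanner flagged this probe well above background on either array. Where the dim array was not, its bound was the higher of its own value and the lowest value well above background. The scanner flagged 72.0% and 74.3% of spots as well above background. The deposited log2 values differed from those computed here by a constant for probes with 1 spot.

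For the lists, probe descriptions were used only where a probe's name is an accession, a locus number or a similar identifier. For the members every description was searched, and the probes so added carry accessions as names. To see which gene a description names, 3464 descriptions that cite a next best hit were checked, of which 0.462% name the gene of that hit. Probe positions come from the array's annotation, on HGSC Btau_3.1. Named genes are the members, the 2 highest and 2 lowest of each meiotic list, those past the threshold, and relatives paired after the values were seen. PRDM9 was added as a relative of PRDM7, and SOX9 and HSD17B3 as markers above 0 in lists that were mostly below. Some genes are not reported here, and pairs that include them were left out. Members and lists were chosen with earlier results of these data known.

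Alternatives were normexp with an offset of 50 (limma), other scalings, thresholds, filters and probe rules, and omission of the patches. Reading probes by description and centring on names of like signal were added after seeing the data. The steps were tested on simulated data. The software was R 4.3.3 (limma 3.58.1) and Python 3.11.15 (numpy 2.4.6, pandas 2.3.3).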

Additional observations from a re-analysis of the deposited data

How the results depend on the processing

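Over 104 values of the member probes under the alternatives, 0 moved by more than the SD between spots, and both MSH5 probes, which lie near 0, changed sign, to at most 0.02. The median and percentile shifts, the deposited values, the dropped filter and the omitted patches move all member probes by one small constant or not at all. Their values could hardly have moved by that SD, so the count rests mainly on normexp, quantile scaling and centring. The median over the members ranged from 0.21 to 0.39. The medians of break formation, telomere attachment and endothelial markers changed sign under some alternatives, reaching -0.03, -0.01 and -0.01. The counts depended on the threshold. With a log2 threshold of 1, 1 member and 1 further meiotic gene were higher and 4 further meiotic genes were lower. At that threshold 12.8% of all detected gene names were higher and 8.87% were lower. With a linear fold of 1.5, 2 members and 14 further meiotic genes were higher and 19 were lower, of 97 further genes detected. At that fold 21.4% of all detected gene names were higher and 22.2% were lower. Counting every probe for itself, 3 further meiotic probes were lower and the Leydig marker median was -0.998. Without the patches 0 further meiotic genes were lower, and 0 when centred on gene names of like signal, an alternative chosen after seeing the data. Over all gene names, 1762 were higher and 722 lower as reported, 1030 and 169 with normexp, and 1444 and 397 with probes well above background on both arrays only. The median of all names moved by less than 0.1 under every scaling. The cause of these changes was not tested. Probes near background are limited by signal, and all rest on 1 array per group. No paired analysis was possible because each group has 1 pooled sample.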

Other observations

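Of the genes in the meiotic and marker lists, 101 had several detected probes. In 25 of them the lowest and the highest probe had opposite signs, and in 4 these lay 1.5 or more apart. These 4 are named here because of their values. SPDYA, which activates CDK2 at the telomeres of meiotic chromosomes, had a difference of 0.60 in its brightest probe and of -3.74 in its other probe. TDRD9, a spermatocyte marker, differed by 0.60 in its brightest probe, and its probes ran from 0.30 to 4.98. The probes of PMS2, of mismatch repair, ran from -1.76 to 0.51. CYP19A1, the aromatase, was higher by at least 6.26 in its brightest probe, and its other detected probe differed by 0.03.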
